A study of Mus musculus with 8 samples.

Results

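Ribosome biogenesis and nucleolar genes, 42 in all, were described in mouse morulae and blastocysts with a knockdown (KD) of Smarca5. The members were a fixed list of symbols. A member was used when its Ensembl ID mapped to the symbol in the mm10 annotation and its mean reached 10 in a table of gene values. All 42 were found among the 21517 genes listed in either table, and all 42 passed that minimum at both stages. The rule itself uses no KD value, but the list was drawn up with earlier results of these data known.

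Ribosomes are assembled in the nucleolus, where RNA polymerase I transcribes the ribosomal DNA into a long precursor RNA. Box C/D and box H/ACA ribonucleoproteins, guided by small nucleolar RNAs (snoRNAs), methylate and pseudouridylate that precursor, and large sets of assembly factors cut, fold and export the small and large subunits. In the preimplantation mouse embryo the nucleoli mature from dense nucleolar precursor bodies, and demand for new ribosomes rises as maternal stores are used up. SMARCA5, also named SNF2H, is an ATPase of the ISWI family that slides nucleosomes. Together with BAZ2A it forms the nucleolar remodelling complex NoRC, known for silencing copies of the ribosomal DNA.

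The groups were morulae labelled MO_NC and MO_Snf2h_KD and blastocysts labelled BL_NC and BL_Snf2h_KD, with 2 libraries each. Every library held RNA from a pool of 20 whole embryos. Embryonic days 3.75 and 4.25 are named for the series without a stage for each day. The sources used here do not give what NC stands for, how the knockdown was made, or the strain. Nothing says whether a group's libraries were collected separately. The p-values therefore rest on the spread of these libraries alone, and that spread may be technical. Whole embryos were measured in bulk, so fewer cells of a type and less RNA per cell cannot be told apart.

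Estimated depth was 16177233 to 18568766 reads per morula library and 13958285 to 23304923 per blastocyst library, and the smallest member value rested on an estimated 473 reads. Smarca5 itself had normalized abundances of 9678 and 9760 in NC morulae and 501 and 470 in KD morulae. In blastocysts it stood at 7000 and 8283 in NC and at 906 and 855 in KD. It fell at both stages, with log2 fold changes of -4.32 in morulae (limma, adjusted p = 1.88e-04) and -3.11 in blastocysts (limma, adjusted p = 5.93e-04). Without limma's mean-variance trend these adjusted p-values were 0.111 and 0.103. All 8 embryo markers (Pou5f1, Nanog, Sox2, Cdx2, Krt8, Krt18, Gata3 and Tfap2c) were measured at both stages, with none called. Their summed value was 58287 to 67424 in the morula libraries. In blastocysts it was 117951 and 118118 in NC and 126156 and 138102 in KD. Within that sum the markers went different ways in KD blastocysts. Of the trophectoderm markers, Cdx2 (115% of NC), Krt8 (119%), Krt18 (123%) and Gata3 (125%) were higher without overlap, and Tfap2c (93.4%) overlapped. Sox2 (70.7%) and Pou5f1 (91.8%), of the inner cell mass, were lower without overlap, and Nanog (99.4%) overlapped. In KD morulae Krt8 (77.6%), Krt18 (74.5%) and Tfap2c (80.5%) were lower without overlap. Gata3 (133%), Cdx2 (104%), Pou5f1 (101%), Nanog (99.7%) and Sox2 (97.0%) overlapped there.

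Markers of other cells that a pool could carry were mostly low. For cumulus, granulosa and stromal cells 3 of 12 were tested at each stage and none was called. Their sum was 88.1 and 186 in NC and 267 and 276 in KD morulae, and 172 and 306 in NC and 156 and 390 in KD blastocysts. Inhbb was its largest term in most libraries. Foxl2, a granulosa marker, was higher in KD without overlap at both stages, at 38.9 and 28.9 in NC and 109 and 77.1 in KD morulae and at 16.3 and 25.1 in NC and 63.9 and 42.6 in KD blastocysts (limma adjusted p = 0.0554 for the mean over stages). Cyp19a1, Dcn, Fshr, Has2 and Ptx3 had no value above 0 at either stage. Of 8 blood markers, 0 were tested in morulae, where the sum ran from 20.4 to 29.3, and 3 in blastocysts, where it ran from 21.3 to 185 with overlapping groups. Of 6 oviduct and uterine markers 2 were tested at each stage, with no value above 0 for Foxj1 and Ltf. Their sum was 127 and 109 in NC and 156 and 183 in KD morulae, and 549 and 524 in NC and 761 and 710 in KD blastocysts. Most of it was Krt7, with 534 and 512 in NC and 746 and 694 in KD blastocysts. There Krt7 was higher without overlap, at the level of the lowest members. In KD morulae Krt7 was higher without overlap too (158% of NC). The embryo keratins Krt8 and Krt18 were also higher in KD blastocysts, but lower in KD morulae. Ovgp1 overlapped at both stages, and Pax8 and Msx1 were too low to be tested. The source of Krt7 was not tested, nor was the part of other cells in the member values.

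Several members carry snoRNA genes in their own introns, so that one transcript yields both a nucleolar protein and guides for modifying ribosomal RNA. In GENCODE vM21 on mm10, 7 of the 42 members (16.7%) held 21 snoRNA genes, all 21 of them in introns of the longest coding transcript. Among all tested protein-coding genes 221 of 12172 (1.82%) held one. Nop56 held 5, Nop58 4, Ncl, Gnl3 and Wdr43 3 each, Tsr1 2 and Dkc1 1. The 4 sequences printed here come from hosts whose KD values lay below both NC values in blastocysts. They read 5′ to 3′ on the strand of the host gene, with the letters TGATGA (box C) in the first 20 bases and CTGA (box D) in the last 20 in capitals. These letters were found in 9 of the 21 snoRNAs and in 308 of all 1507 annotated snoRNAs (20.4%), searched on the gene's strand only. None of the 21 snoRNA genes in members had a value at either stage, so their levels could not be analysed. Snord82 lies in Ncl at chr1:86356261-86356330 (minus strand), Snord69 in Gnl3 at chr14:31014287-31014366 (minus), Snord110 in Nop56 at chr2:130275506-130275573 (plus) and Snord92 in Wdr43 at chr17:71631281-71631365 (plus).
Snord82: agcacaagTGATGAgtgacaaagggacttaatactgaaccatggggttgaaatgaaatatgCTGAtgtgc
Snord69: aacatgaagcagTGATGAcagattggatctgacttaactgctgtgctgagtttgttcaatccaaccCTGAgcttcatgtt
Snord110: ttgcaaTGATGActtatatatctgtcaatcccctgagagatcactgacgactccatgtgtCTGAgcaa
Snord92: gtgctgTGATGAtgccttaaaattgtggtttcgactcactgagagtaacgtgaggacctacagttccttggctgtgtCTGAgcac

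Promoters were searched for the E-box CACGTG, the letters bound by MYC, because that factor is known to activate many ribosome biogenesis genes. The window was the 250 bases before the gene start in RefSeq on GRCm38.p6, and a palindrome reads the same on both strands. Promoters were held for 37 of the 42 members, those of Bop1, Fbl, Npm1, Rrp12 and Rrs1 not being in the table. The motif stood in 2 of the 37 (5.41%), against 996 of 10105 tested genes (9.86%) and 1854 of all 27025 genes with a promoter (6.86%). Counted by promoter, it stood in 2 of 41 of the members and in 1978 of all 32851 (6.02%). It lay 121 bases before the start of Imp4, in chr1:34439681-34439740 (plus strand), and 60 bases before the start of Nop2, in chr6:125131796-125131855 (plus strand). Both windows are shown with the motif in capitals.
Imp4: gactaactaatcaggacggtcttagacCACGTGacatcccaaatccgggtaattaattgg
Nop2: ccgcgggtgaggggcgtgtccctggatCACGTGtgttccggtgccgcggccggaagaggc

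Most members had somewhat lower values in KD than in NC, in blastocysts and in morulae. No single member passed the test at either stage. Across the 42, the median KD value was 92.5% of NC in morulae and 88.1% of NC in blastocysts. RNA of the genes for nucleolin, nucleostemin, NOLC1, MYBBP1A and DDX21 showed some of the larger differences in blastocysts. The largest was that of Rrp1b (log2 -0.48), and Rrp9, Bop1, Polr1b and Wdr43 there had larger ones than Ddx21. The groups overlapped there for nucleophosmin, fibrillarin and PES1.

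**Figure D1:**
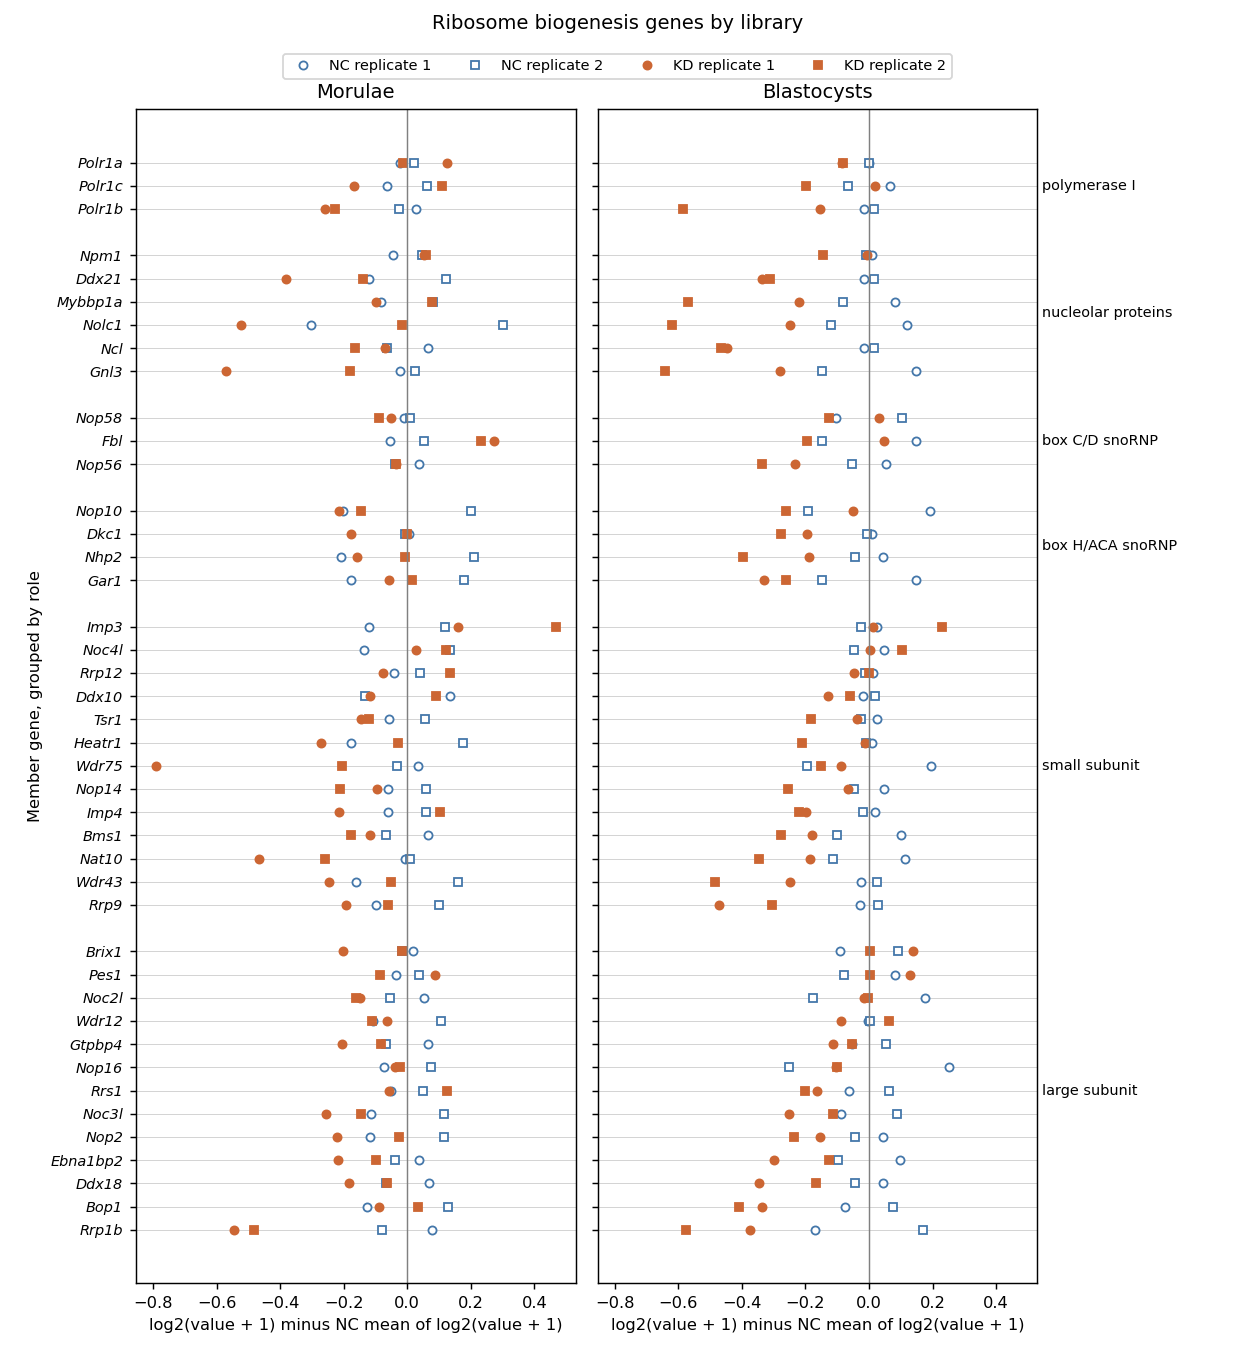
Each symbol is 1 library, plotted as log2(value + 1) minus the mean of the NC libraries of its stage (x axis, log2 units) for each member gene (y axis, grouped by role). In blastocysts the KD symbols of 28 of the 42 members lie below both NC symbols, and in morulae those of 15 do. Over all tested genes the shares are 24.9% and 21.2%.

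The whole list was first compared library by library. In morulae the 42 members made up 1.16% and 1.20% of the summed abundance in NC and 1.12% and 1.16% in KD. These shares overlapped when not rounded, since KD replicate 2 lay just above NC replicate 1. In blastocysts the members held 0.864% and 0.832% of the sum in NC and 0.747% and 0.697% in KD, and the KD shares were the 2 lowest. Relative to the NC mean, the median member stood at -0.15 and -0.04 (log2) in the KD morulae, with the NC libraries at -0.05 and 0.05. In KD blastocysts it stood at -0.15 and -0.21, with NC at 0.03 and -0.03. The median of all tested genes was 0.00 in every library at this rounding.

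In morulae 0 of the 42 members passed an adjusted p of 0.05 in limma, in a comparison where 0.00746% of all 13404 tested genes were called lower and 0% higher. At an unadjusted p under 0.05 there were 3 members, all lower (7.14%), against 5.22% of all genes lower and 5.16% higher. The smallest adjusted p of a member was 0.402. Of the 42, 34 (81%) had a log2 fold change below 0, against 50.8% of all tested genes. The 2 KD values lay below both NC values for 15 members (35.7%), against 21.2% of all genes, and above both for 3 (7.14%), against 20.7%. The median log2 fold change was -0.11 (range -0.51 to 0.31), with -0.01 over all tested genes. Leaving out NC replicate 2 moved the member median in morulae to -0.018. Quantile normalization moved it to -0.073 and left 10 members lower without overlap.

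In blastocysts 0 of the 42 members passed in limma, where 0.0513% of all 13651 tested genes were called lower and 0.0366% higher. At an unadjusted p under 0.05 there were 14 members, all lower (33.3%), against 8.73% of all genes lower and 8.83% higher. The smallest adjusted p was 0.0746. Of the 42, 38 (90.5%) had a log2 fold change below 0, against 49.7% of all tested genes. The KD values lay below both NC values for 28 members (66.7%), against 24.9% of all genes, and above both for none, against 24.6%. The median log2 fold change was -0.18 (range -0.48 to 0.12), with 0.00 over all tested genes, and -0.24 to -0.14 when any 1 library was left out. In the same KD libraries Cdx2, Krt8, Krt18 and Gata3 were higher without overlap, and Sox2 and Pou5f1 were lower. Nanog (99.4% of NC) and Tfap2c (93.4%) overlapped. None of these markers passed the test, and their part in the member values was not tested.

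Members are abundant genes, so both stages were also set beside genes with a mean of at least 500, a limit chosen after the data were seen. Among 5828 such genes in morulae the median was -0.03, with 55.8% below 0, 24.2% lower without overlap and 18.1% higher. Among 6439 in blastocysts the median was -0.01, with 51.9% below 0, 27% lower without overlap and 23.5% higher.

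**Figure D2:**
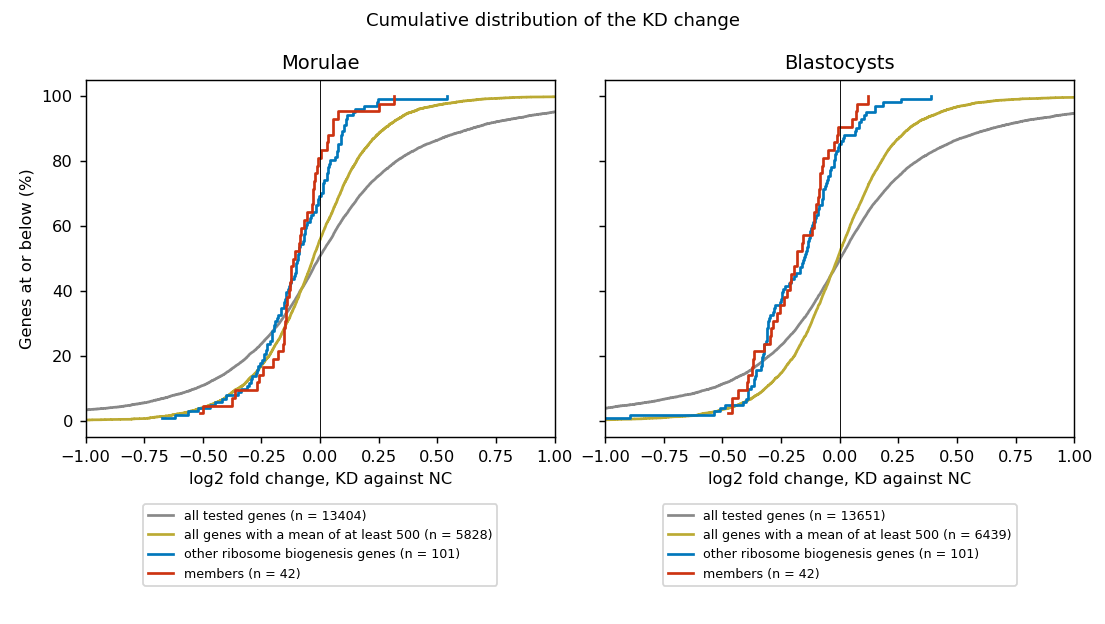
Cumulative share of genes (y axis, percent) at or below each log2 fold change of KD against NC (x axis, shown from -1 to 1; values beyond lie outside the axes) for the 42 members, 101 other ribosome biogenesis genes, all tested genes and those with a mean of at least 500. In blastocysts 90.5% of the members lie below 0, and 49.7% of all tested genes do.

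RNA polymerase I was represented by 3 subunits. POLR1A and POLR1B form the catalytic core, and POLR1C is shared with RNA polymerase III. Polr1b had 4973 and 4796 in NC morulae and 4084 and 4175 in KD morulae. In blastocysts it had 4474 and 4568 in NC and 4065 and 3009 in KD. Both KD values were below both NC values at each stage, and KD replicate 2 of the blastocysts was the lowest of its 4. The log2 fold changes were -0.24 (SE 0.11, limma adjusted p = 0.526) and -0.37 (SE 0.15, limma adjusted p = 0.262). Polr1a had 3021 and 3118 in NC and 3348 and 3039 in KD morulae, which overlap. In blastocysts the Polr1a libraries lay close together, at 2818 and 2821 in NC and 2659 and 2665 in KD (94.4% of NC, log2 -0.08, limma adjusted p = 0.684). Polr1c overlapped at both stages, with log2 fold changes of -0.03 and -0.09.

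The 6 nucleolar proteins had the lowest median of the 6 role groups in blastocysts, -0.42, and one of -0.19 in morulae. All 6 were below 0 in blastocysts, and 5 of them without overlap, against 49.7% and 24.9% of all tested genes. Nucleolin (Ncl, ENSMUSG00000026234, chromosome 1, 86344719 to 86359400, minus strand) binds the precursor RNA and is among the most abundant nucleolar proteins. In blastocysts its NC values were 22455 and 22931 and its KD values 16634 and 16415, with a gap between groups far wider than the distance within either. The means were 22693 ± 337 and 16524 ± 155 (SD, n = 2), or 72.8% of NC, and the log2 fold change was -0.46 (SE 0.07, limma adjusted p = 0.0746). In morulae Ncl had 22822 and 20890 in NC and 20785 and 19502 in KD. Those groups nearly touched, and the log2 fold change was -0.12 (SE 0.11, limma adjusted p = 0.752).

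Nucleostemin (Gnl3), a GTPase of the nucleolus that is abundant in stem cells, had 1917 and 1563 in NC and 1427 and 1109 in KD blastocysts. In morulae it had 2634 and 2719 in NC and 1802 and 2362 in KD. The KD libraries were the lower ones at both stages, at 77.8% of NC in morulae (log2 -0.37, limma adjusted p = 0.501) and 72.9% in blastocysts (log2 -0.46, limma adjusted p = 0.227). Ddx21, an RNA helicase that couples polymerase I transcription to processing, had 4406 and 4494 in NC and 3522 and 3584 in KD blastocysts. Replicates of Ddx21 differed little there, and the log2 fold change was -0.32 (SE 0.09, limma adjusted p = 0.144). In morulae it had 7315 and 8656 in NC and 6108 and 7224 in KD, lower in KD by a narrow margin (log2 -0.26, limma adjusted p = 0.582).

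Mybbp1a, which represses polymerase I transcription and takes part in processing, had 10270 and 9159 in NC and 8316 and 6528 in KD blastocysts, where KD was lower (log2 -0.40, limma adjusted p = 0.199). In morulae it overlapped, with 11710 and 13125 in NC and 11588 and 13076 in KD (log2 -0.01, limma adjusted p = 0.987). Nolc1, a chaperone of snoRNPs, had 5458 and 4622 in NC and 4227 and 3269 in KD blastocysts (log2 -0.43, limma adjusted p = 0.209). In morulae its replicates spread widely and overlapped, with 7719 and 11727 in NC and 6621 and 9413 in KD. Npm1, the histone and ribosome chaperone nucleophosmin, had 25389 and 25056 in NC and 25104 and 22830 in KD blastocysts, which overlap (log2 -0.08, limma adjusted p = 0.667). In morulae it had 42178 and 44945 in NC and 45120 and 45339 in KD, slightly higher in KD (log2 0.05, limma adjusted p = 0.888). Nucleophosmin and nucleolin, the nucleolar chaperones with the highest values, stood apart in KD blastocysts, Ncl at 72.8% of NC and Npm1 with overlapping groups.

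**Figure D3:**
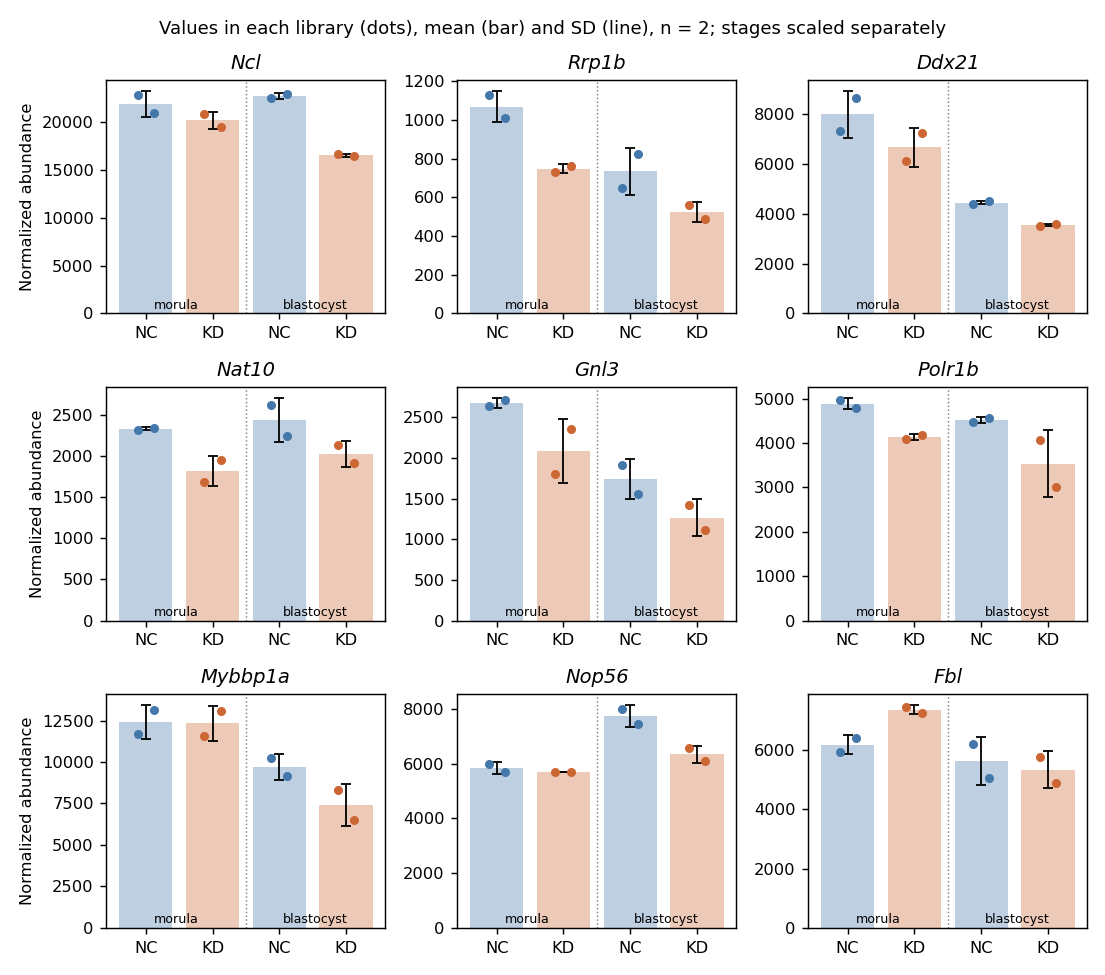
Normalized abundance (y axis, starting at 0) of 9 members in NC and KD at each stage, with dots for libraries, bars for means and lines for the SD (n = 2); the stages were scaled separately. The Ncl libraries of KD blastocysts, at 16634 and 16415, lie below the NC libraries at 22455 and 22931, while Fbl is higher in KD morulae and overlaps in blastocysts.

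The box C/D core was represented by fibrillarin (Fbl), the methyltransferase, and by the scaffold proteins NOP56 and NOP58. Fbl was among the few members higher in KD morulae, with 5952 and 6409 in NC and 7468 and 7250 in KD. Both KD values exceeded both NC values (119% of NC, log2 0.25, SE 0.11, limma adjusted p = 0.5). In blastocysts Fbl overlapped, with 6204 and 5050 in NC and 5785 and 4892 in KD (log2 -0.07, limma adjusted p = 0.812). Nop56 had 8007 and 7438 in NC and 6560 and 6110 in KD blastocysts, with both KD values lower (82.0% of NC, log2 -0.29, limma adjusted p = 0.181). In morulae Nop56 was level, with 5999 and 5689 in NC and 5695 in each KD library. Nop58 had 6017 and 6101 in NC and 5848 and 5700 in KD morulae (log2 -0.07), and it overlapped in blastocysts (log2 -0.05). None of these 3 genes passed the test at either stage.

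The box H/ACA core has 4 proteins. Dyskerin (Dkc1) is the pseudouridine synthase, and NHP2, GAR1 and NOP10 complete the particle, which telomerase shares. All 4 were below 0 at both stages, with a median of -0.09 in morulae and -0.26 in blastocysts, and 0 and 3 of them respectively without overlap. Of genes tested at both stages 32.7% were below 0 at both. Lower without overlap were 21.2% of all tested genes in morulae and 24.9% in blastocysts. Dkc1 had 3686 and 3646 in NC and 3203 and 3024 in KD blastocysts (84.9% of NC, log2 -0.24, limma adjusted p = 0.25). Nhp2 had 4704 and 4418 in NC and 3995 and 3462 in KD blastocysts (81.8% of NC, log2 -0.29, limma adjusted p = 0.224). Gar1 had 1855 and 1514 in NC and 1333 and 1397 in KD (log2 -0.30, limma adjusted p = 0.311). For these 3 genes the KD blastocysts were the 2 lowest libraries. Nop10 overlapped, with 1402 and 1074 in NC and 1184 and 1022 in KD blastocysts (log2 -0.16).

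The 13 small subunit factors act on the precursor of the 40S subunit, many of them within the processome that assembles on the growing transcript. In blastocysts 11 were below 0, 9 of them without overlap, with a median of -0.12. Over all tested genes 49.7% were below 0 there, and 24.9% were lower without overlap. In morulae 10 were below 0, 5 without overlap, and 1 was higher without overlap, with a median of -0.13. The shares of all tested genes in morulae were 50.8%, 21.2% and 20.7%. Rrp9, a component of the U3 particle, had 1865 and 1937 in NC and 1369 and 1537 in KD blastocysts (76.4% of NC, log2 -0.39, limma adjusted p = 0.168). Wdr43, a subunit of the t-UTP complex that starts processome assembly, had 2530 and 2620 in NC and 2165 and 1841 in KD blastocysts (77.8% of NC, log2 -0.37, limma adjusted p = 0.186). Both genes were clearly separated there and overlapped in morulae, where the log2 fold changes were -0.13 and -0.15.

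Wdr75, of the same t-UTP complex, was apart in morulae instead. It had 2360 and 2254 in NC and 1332 and 1998 in KD morulae, with KD replicate 1 far below the rest (72.2% of NC, log2 -0.50, SE 0.21, limma adjusted p = 0.481). In blastocysts the Wdr75 groups overlapped, with 1387 and 1058 in NC and 1138 and 1092 in KD (log2 -0.12, limma adjusted p = 0.732). Nat10, which acetylates cytidines of the 18S RNA, had 2317 and 2342 in NC and 1684 and 1947 in KD morulae (77.9% of NC, log2 -0.36, limma adjusted p = 0.462). In blastocysts Nat10 had 2623 and 2245 in NC and 2131 and 1909 in KD, again with KD lower (log2 -0.27, limma adjusted p = 0.316). Heatr1, the third t-UTP member of the list, was less separated, at log2 -0.15 with overlap in morulae and -0.11 without overlap in blastocysts.

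Imp3, which joins the U3 RNA to the precursor, was the member with the highest log2 fold change at both stages. It had 779 and 920 in NC and 946 and 1171 in KD morulae (log2 0.31, limma adjusted p = 0.608) and 902 and 870 in NC and 894 and 1038 in KD blastocysts (log2 0.12, limma adjusted p = 0.688). The groups were apart in morulae and overlapped in blastocysts. Its partner Imp4 had 2026 and 1977 in NC and 1744 and 1717 in KD blastocysts (log2 -0.21), and it overlapped in morulae (log2 -0.06). The GTPase Bms1 (log2 -0.15 and -0.23), the related Tsr1 (-0.13 and -0.11) and Nop14 (-0.15 and -0.16) were lower without overlap at both stages. Rrp12 (0.03 and -0.02) and Noc4l (0.07 and 0.05) overlapped at both. The helicase gene Ddx10 overlapped in morulae (-0.01) and was lower without overlap in blastocysts (-0.09).

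The 13 large subunit factors act on the precursor of the 60S subunit. In each stage 11 of them were below 0, 5 without overlap in morulae and 8 in blastocysts, with medians of -0.12 and -0.18. Of all tested genes 50.8% in morulae and 49.7% in blastocysts were below 0, and 21.2% and 24.9% were lower without overlap. Rrp1b, which recruits a phosphatase to the nucleolus, had the lowest log2 fold change of all members at both stages. It had 1127 and 1011 in NC and 732 and 764 in KD morulae (70.0% of NC, log2 -0.51, SE 0.16, limma adjusted p = 0.402). In blastocysts it had 649 and 822 in NC and 563 and 489 in KD (71.6% of NC, log2 -0.48, SE 0.17, limma adjusted p = 0.236). The KD libraries of Rrp1b were the lower ones at both stages, with the wider gap in morulae.

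BOP1, PES1 and WDR12 form the PeBoW complex, which is needed for processing of the 28S precursor. Bop1 had 1487 and 1652 in NC and 1241 and 1181 in KD blastocysts, without overlap (77.1% of NC, log2 -0.37, limma adjusted p = 0.185), and it overlapped in morulae (log2 -0.03). Pes1 had 3442 and 3080 in NC and 3561 and 3266 in KD blastocysts, which overlap (log2 0.07, limma adjusted p = 0.778). Wdr12 had 844 and 847 in NC and 795 and 884 in KD, which overlap as well (log2 -0.01).

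NOC2L and NOC3L travel with early 60S particles. Noc2l had 6292 and 5842 in NC and 5467 and 5421 in KD morulae, lower in both KD libraries (log2 -0.16, limma adjusted p = 0.681), and overlapped in blastocysts (log2 -0.01). Noc3l was lower without overlap at both stages (log2 -0.20 and -0.18). Ebna1bp2, an early 60S factor, had 2986 and 2834 in NC and 2501 and 2716 in KD morulae. In blastocysts it had 2984 and 2611 in NC and 2266 and 2557 in KD, so it too was lower without overlap at both (log2 -0.16 and -0.21). The GTPase Gtpbp4 had the same pattern with smaller differences (log2 -0.14 and -0.08).

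The other 5 large subunit members were less uniform. The helicase gene Ddx18 had 3077 and 2894 in NC and 2348 and 2659 in KD blastocysts (log2 -0.26, limma adjusted p = 0.281), and it overlapped in morulae (log2 -0.12). Nop2, a methyltransferase of the 28S RNA, overlapped in morulae and was lower without overlap in blastocysts (log2 -0.20). Rrs1 had that pattern too, at 0.03 and -0.18. Nop16 (-0.03 and -0.10) and Brix1 (-0.11 and 0.07) overlapped at both stages.

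Both stages were then compared member by member. In all, 33 of the 42 members (78.6%) were below 0 at both stages, against 32.7% of genes tested at both, 5 in blastocysts alone, 1 in morulae alone and 3 above 0 at both. KD was lower without overlap at both stages for 12 (28.6%), against 9.54% of genes tested at both, and higher for 0, against 9.41%. The 12 were Polr1b, Ncl, Gnl3, Ddx21, Nop14, Bms1, Tsr1, Nat10, Rrp1b, Ebna1bp2, Gtpbp4 and Noc3l. Across the 42 members the log2 fold changes of the stages had a Pearson r of 0.52 and a Spearman rho of 0.49. The stages share no libraries, and the values are given as a description across genes that are not independent. No such correlation over all tested genes is given beside them, so they are not shown to be particular to the members. The 21 snoRNA genes sat in 7 hosts with a median of -0.12 in morulae and -0.29 in blastocysts, beside -0.11 and -0.16 in the other members and -0.02 at both stages in all tested hosts.

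**Figure D4:**
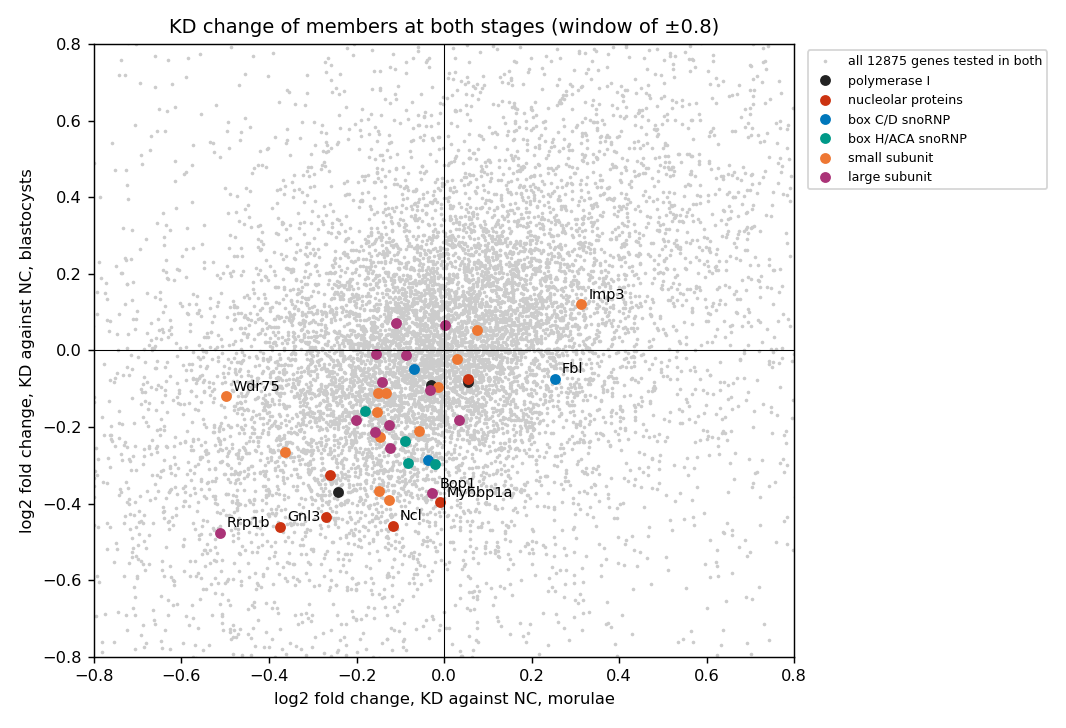
Log2 fold change of KD against NC in morulae (x axis) and blastocysts (y axis) for the members, coloured by role, over all genes tested at both stages (grey, window of ±0.8). Members below 0 at both stages number 33 of 42, while Fbl and Imp3 lie to the right and Rrp1b at the lower left.

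A limma fit that held all 8 libraries tested the mean of the KD changes of both stages. Of the members 1 was called lower and 0 higher, against 1.46% of 12875 genes called lower and 1.53% higher. At an unadjusted p under 0.05 there were 12 members, all lower (28.6%), against 10.6% of genes lower and 10.2% higher. The called member was Ncl, which fell by 0.29 on the log2 scale (SE 0.06, limma adjusted p = 0.0462), with KD lower in both comparisons. That call lies close to the threshold. It was lost without the mean-variance trend (limma adjusted p = 0.153), without the filter on low values (0.0511), after quantile normalization (0.0556) and on leaving out any 1 library (0.0506 to 0.149). Rrp1b was next, at -0.49 (limma adjusted p = 0.0598), followed by Ddx21 at -0.29 (0.0947) and Nat10 at -0.31 (0.0958). The median over the members was -0.16, beside 0.00 over all genes.

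The same fit tested whether the KD change differed between the stages (blastocyst change minus morula change). In limma 0 members were called, where 0% of genes were called lower and 0% higher. Ncl alone had an unadjusted p under 0.05, in the direction of a lower value in blastocysts, against 2.62% of genes in that direction and 2.72% in the other. The Ncl difference was -0.34 (SE 0.12, unadjusted p = 0.0213, limma adjusted p = 0.905). For Mybbp1a it was -0.39, for Bop1 -0.35 and for Fbl -0.33, each with a limma adjusted p of 0.921, and for Wdr75 0.38 (limma adjusted p = 0.929). The median was -0.08 over members and 0.01 over all genes, with 29 members below 0 and 13 above. No member was shown to differ between stages in its KD change at the adjusted threshold.

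A second list held 101 other ribosome biogenesis genes, none of them members, all tested at both stages. None was called at either stage by limma. At an unadjusted p under 0.05, 6 in morulae (5.94%, against 5.22% of all genes) and 25 in blastocysts (24.8%, against 8.73%) were lower, and 0 and 1 were higher. In morulae 70 were below 0 (69.3%, against 50.8%), 37 lower without overlap (36.6%, against 21.2%) and 9 higher (8.91%, against 20.7%), with a median of -0.09. In blastocysts 86 were below 0 (85.1%, against 49.7%), 52 lower without overlap (51.5%, against 24.9%) and 5 higher (4.95%, against 24.6%), with a median of -0.15. The 88 processing and assembly genes had medians of -0.11 and -0.19. The 13 genes of the polymerase I machinery were at 0.01 and -0.07, with 7 and 5 of them above 0. Genes lower at that unadjusted limit in morulae included Nol8, with a log2 fold change of -0.62 (limma adjusted p = 0.402), the polymerase I subunit gene Twistnb at -0.56 (0.446) and the processome gene Krr1 at -0.47 (0.41), besides Tsr2 and Wdr3. Nol6, a small subunit factor, had 2304 and 2395 in NC and 1918 and 1815 in KD blastocysts, lower in KD (log2 -0.33, limma adjusted p = 0.176). Ubtf, the architectural factor that binds the ribosomal DNA, was the gene higher in blastocysts at an unadjusted p under 0.05, with 8176 and 8617 in NC and 9943 and 10175 in KD (120% of NC, log2 0.26, limma adjusted p = 0.176).

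Over both stages 3 of these 101 genes (2.97%, against 1.46% of all genes) were called lower by limma. Tsr2, the chaperone of the ribosomal protein RPS26, had 1740 and 2175 in NC and 1036 and 1434 in KD morulae, and 1084 and 1036 in NC and 606 and 536 in KD blastocysts. It fell by 0.78 (limma adjusted p = 0.0247). Wdr3, of the small subunit processome, fell by 0.38 (limma adjusted p = 0.0487), and Ftsj3, a methyltransferase of early 60S particles, by 0.35 (limma adjusted p = 0.0476). Without the mean-variance trend none of the 3 passed, at adjusted p-values of 0.0697, 0.127 and 0.134. With 1 library left out the adjusted p ran from 0.0316 to 0.0948 for Tsr2, from 0.0465 to 0.150 for Wdr3 and from 0.0573 to 0.150 for Ftsj3. Urb1, a large subunit factor, had 711 and 906 in NC and 396 and 382 in KD blastocysts (log2 -1.04, limma adjusted p = 0.0811), while in morulae it had 730 and 767 in NC and 682 and 958 in KD, which overlap.

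The genes Baz2a, Myc and Mycn were read beside the members. Baz2a, the NoRC partner of SMARCA5, was at 10583 and 10892 in NC and 9456 and 10387 in KD morulae (log2 -0.12, limma adjusted p = 0.762), and overlapped in blastocysts (log2 -0.04, limma adjusted p = 0.872). Myc was at 271 and 486 in NC and 124 and 241 in KD morulae, and at 404 and 589 in NC and 231 and 299 in KD blastocysts. Both KD values of Myc lay below both NC values at each stage, without passing the test (log2 -1.06 and -0.89, limma adjusted p = 0.468 and 0.154, and 0.0908 for the mean over stages). Mycn, its close relative, was at 85.4 and 64.2 in NC and 137 and 131 in KD morulae (log2 0.85, limma adjusted p = 0.468) and overlapped in blastocysts (log2 0.27). The part of Myc in the member values was not tested.

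Levels of different members were compared as NC means per kilobase of the longest coding transcript, each within its own stage. Npm1 was the highest, at 26676 in morulae and 15446 in blastocysts. In morulae Nhp2 (7632), Fbl (5163) and Nop56 (3113) followed, and in blastocysts Fbl (4701), Nhp2 (4377) and Nop56 (4114). Ncl stood at 2665 in morulae and 2767 in blastocysts. The lowest levels per kilobase were those of Wdr12, at 125 in morulae and 84.4 in blastocysts, and Rrp1b, at 219 and 151. These places depend on the transcript taken, which was 10012 bases for Wdr12 and 8202 for Ncl. Before division by length, Wdr12 had an NC mean of 1251 in morulae, above Rrp1b (1069) and Imp3 (850). In blastocysts Wdr12 stood at 845, between Rrp1b (735) and Imp3 (886).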

How the data were processed

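Polyadenylated RNA of 8 libraries was measured per gene. The authors deposited 1 table per stage of a normalized signal, here named normalized abundance. Salmon 0.14.1, DESeq2 and the mm10 build are listed per the submitters' processing notes, without the role of each tool. Columns summed to 17151880 to 17823304 (morulae) or 18896774 to 19247880 (blastocysts), so levels were not tested between tables. Depth was estimated from the step between values of genes found in 1 library, of which 95.0% to 100% were whole (tolerance 0.01), and sets no interval.

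Genes with a mean of at least 10 entered limma 3.58.1 (R 4.3.3) as log2(value + 1) (mean-variance trend, two-sided, Benjamini-Hochberg over all tested genes, threshold 0.05), a scale that understates changes of low genes. The fit was also run on simulated data whose noise was independent between libraries. Same-numbered libraries of the real data deviated together, which that run did not cover. Groups came from sample titles, and values are means ± SD. With 2 libraries against 2, a permutation test of 1 gene cannot reach 0.05. Symbols matched 98.9% of IDs. Promoters are RefSeq's (GRCm38.p6); positions and snoRNAs are from GENCODE vM21.

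The members and lists were chosen with earlier results of these data known. Named members were ranked by p over all 42, at each stage and for the difference and mean, with fixed anchors such as Ncl, Npm1 and Fbl. Other pathway genes were ranked by p at each stage. Values of further members were added to account for all 42, and the text was ordered by role group. Alternatives were no trend, a pseudocount of 5, no filter, means of at least 50 or 500, quantile and TMM scaling, a replicate block and leaving out each library.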

Additional observations from a re-analysis of the deposited data

How the results depend on the processing

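With 1 library left out, the member median ran from -0.15 to -0.018 in morulae and from -0.24 to -0.14 in blastocysts. Members lower without overlap then numbered 17 to 29 in morulae and 29 to 36 in blastocysts, and members higher 5 to 9 and 1 to 6, since fewer libraries overlap less by construction. After quantile normalization the morula median was -0.073, with 10 members lower without overlap, and 1 member was higher without overlap in blastocysts. Members called for the mean over stages numbered 0 without the trend, 0 without the filter, 0 after quantile normalization and 0 to 0 with 1 library left out; the cause was not tested. Of 54 values of named genes, 52 kept their sign under all settings run. Polr1a in morulae ran from -0.015 to 0.13 and Fbl in blastocysts from -0.22 to 0.075 with 1 library left out.

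The labels share replicate numbers across groups without saying that a number marks a common source. Same-numbered libraries deviated together, with a correlation of 0.297 across genes in morulae and 0.146 in blastocysts. With the replicate number as a block, limma called 2 members in morulae (4.76%; Wdr75 and Rrp1b), 8 in blastocysts (19%; Ncl, Nolc1, Gnl3, Mybbp1a, Ddx21, Nop56, Nhp2 and Rrp9), 8 for the mean (19%), all lower, and 0 for the difference between stages. Adjusted p for Ncl in blastocysts was 0.0038. The block leaves fewer residual degrees of freedom per gene than the main fit, so its p-values rest more on variance pooled across genes. Of the 101 other genes the block fit called 6 lower in morulae (5.94%). In blastocysts it called 4 lower (3.96%) and 1 higher (0.99%), and for the mean 18 lower (17.8%) and 1 higher (0.99%). The 3.96% lies below the 4.21% of all genes called lower in blastocysts. Myc passed as lower in the block fit, with adjusted p of 0.00971 in morulae, 0.0175 in blastocysts and 0.00731 for the mean. In that fit Mycn passed for the mean alone, as higher in KD (log2 0.56, limma adjusted p = 0.0359). The block raised calls over all genes from 1 to 892 in morulae (3.54% lower, 3.12% higher) and from 12 to 1208 in blastocysts (4.21% and 4.64%), with 6.07% and 5.92% for the mean. The limit of 500 was added after the data were seen.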
